A study of Homo sapiens with 10 samples.

Results

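The multi-tRNA synthetase complex is a cytosolic assembly in which several aminoacyl-tRNA synthetases are held together by scaffold proteins. The 7 synthetase genes described here, EPRS1, LARS1, IARS1, KARS1, MARS1, QARS1 and RARS1, were chosen by name, with the group difference of these same arrays already known, from 14884 named genes. Each had a single named probe set, and each matched its current symbol by gene ID. PC-3 is an established cell line from a bone metastasis of a human prostate cancer. Cells of this line had received a p-Lenti vector that was empty (control clones 1, 2, 3, 4 and 5) or held CENPU (CENPU clones 1, 4, 5, 7 and 13), and after blasticidin selection were propagated as clonal isolates. Both groups thus shared the vector backbone, the selection and the growth from single isolates, and each of the 10 clones gave 1 Affymetrix array of total RNA. The promoter driving CENPU is not stated in the labels. CENPU encodes a subunit of the inner kinetochore, and the comparison asked which transcripts differed when it was overexpressed.

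An aminoacyl-tRNA synthetase joins an amino acid to the tRNA that reads its codons, and so supplies the ribosome. In the complex, EPRS1 carries glutamyl and prolyl activities in a single chain, and LARS1, IARS1, MARS1, QARS1, RARS1 and KARS1 charge leucine, isoleucine, methionine, glutamine, arginine and lysine tRNAs. AIMP1, AIMP2 and EEF1E1 are its scaffold subunits. RARS1 and QARS1 are bound to AIMP1, while KARS1 is bound to AIMP2. Several members have further roles: LARS1 takes part in leucine sensing upstream of mTORC1, and EPRS1 can leave the complex to repress translation of inflammatory mRNAs. Synthetase genes are also known targets of the amino acid response, in which ATF4 binds a composite element in promoters of genes for amino acid supply.

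The promoters, 250 bases before to 50 after the start of the gene, were taken from RefSeq on GRCh38.p14, where 6 of the 7 members matched and LARS1 did not. They are shown for both members that hold the amino acid response element, and for the members with the highest (EPRS1) and the lowest (QARS1) group difference. The element was searched as TGATGNAA on both strands, and matches are in capitals. The EPRS1 promoter lies at chr1:220046456-220046755 on the minus strand, IARS1 at chr9:92293648-92293947 on the minus strand, MARS1 at chr12:57487818-57488117 on the plus strand and QARS1 at chr3:49104708-49105007 on the minus strand.
IARS1: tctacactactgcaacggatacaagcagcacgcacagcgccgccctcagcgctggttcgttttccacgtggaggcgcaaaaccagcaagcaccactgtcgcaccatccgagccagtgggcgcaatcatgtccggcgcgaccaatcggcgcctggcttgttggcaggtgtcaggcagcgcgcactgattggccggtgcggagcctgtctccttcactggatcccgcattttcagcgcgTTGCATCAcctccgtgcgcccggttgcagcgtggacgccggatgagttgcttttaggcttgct
MARS1: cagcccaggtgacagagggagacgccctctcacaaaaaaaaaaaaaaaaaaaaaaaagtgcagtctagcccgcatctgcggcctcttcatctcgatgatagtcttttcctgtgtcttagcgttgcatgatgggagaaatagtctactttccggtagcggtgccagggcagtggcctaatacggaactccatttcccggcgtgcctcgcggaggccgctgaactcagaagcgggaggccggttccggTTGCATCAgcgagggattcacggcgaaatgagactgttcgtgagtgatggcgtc
EPRS1: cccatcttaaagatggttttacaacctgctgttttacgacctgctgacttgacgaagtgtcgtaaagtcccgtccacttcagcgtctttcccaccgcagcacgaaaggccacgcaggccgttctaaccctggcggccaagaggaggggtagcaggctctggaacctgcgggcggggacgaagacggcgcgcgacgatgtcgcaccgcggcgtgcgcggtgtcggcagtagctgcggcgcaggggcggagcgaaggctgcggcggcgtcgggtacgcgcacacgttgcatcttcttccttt
QARS1: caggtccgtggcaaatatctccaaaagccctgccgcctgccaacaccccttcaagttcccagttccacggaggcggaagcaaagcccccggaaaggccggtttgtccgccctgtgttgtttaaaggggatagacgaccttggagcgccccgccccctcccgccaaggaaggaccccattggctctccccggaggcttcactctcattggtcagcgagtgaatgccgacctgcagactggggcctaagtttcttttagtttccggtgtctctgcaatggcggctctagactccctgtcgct
The match TTGCATCA, which is the element on the opposite strand, began 13 bases before the start of IARS1 and 4 bases before the start of MARS1. The searched element, TGATGNAA with any base at N, was in 2.69% of 22199 promoters of protein-coding genes, and in 3.62% of all 35116 promoters of the same length. Among the free-standing cytosolic synthetases, 5 of the 8 with a promoter in the table held the element, namely AARS1, CARS1, GARS1, NARS1 and TARS1. The other motifs searched, also on both strands, were an E-box (CACGTG, in 8.34% of protein-coding promoters), an ETS motif (CCGGAAG, 12.8%) and a CCAAT box (CCAAT, 34.7%). The E-box was found in IARS1, the ETS motif in KARS1 and RARS1, and the CCAAT box in IARS1 and QARS1. No searched motif overlapped another in these promoters.

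The members differed widely in their group difference. EPRS1, LARS1, RARS1 and KARS1 were higher in every CENPU clone than in every control clone, IARS1 and MARS1 were higher in most, and QARS1 was not higher. The median log2 difference over the 7 members was 0.95, with 6 of 7 above 0, against a median of -0.02 over all named genes, of which 6984 of 14884 were above 0. The groups were apart, with CENPU higher, in 4 of 7 members and in 4.54% of all named genes. These differences chose the members, so they are given as a description without a test. The arrays measured RNA pooled from many cells, so more RNA per cell and a larger share of cells with high RNA cannot be told apart.

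**Figure D1:**
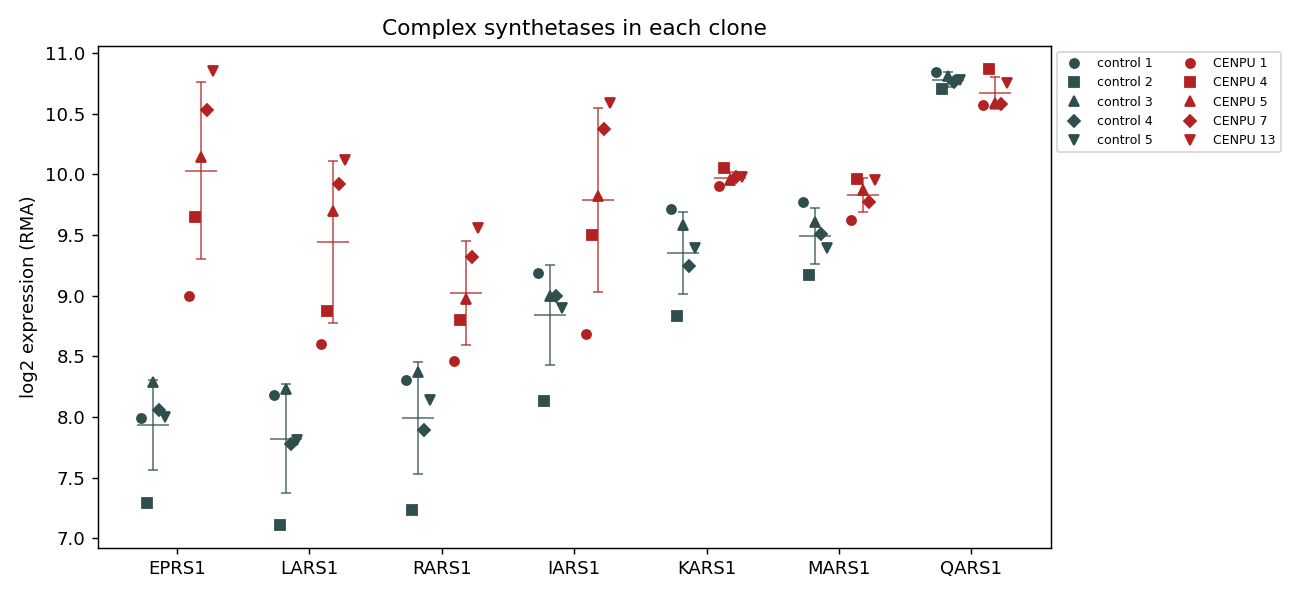
Log2 expression of the 7 complex synthetases (vertical axis) in each of 5 control clones (dark) and 5 CENPU clones (red); marker shapes show clones, and bars show the group mean with its SD. The groups are apart for EPRS1, LARS1, RARS1 and KARS1, overlap for IARS1 and MARS1, and lie together for QARS1.

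EPRS1, on chromosome 1 (219968600 to 220046505, GRCh38.p14), had the largest difference of the members. On the log2 scale, its level was 9.00, 9.65, 10.14, 10.53 and 10.85 in CENPU clones 1, 4, 5, 7 and 13. In control clones 1 to 5 it was 7.99, 7.29, 8.29, 8.06 and 8.00. The lowest CENPU clone was thus above the highest control clone, by 0.72. Group means were 10.03 ± 0.73 for CENPU and 7.93 ± 0.37 for control (SD, n = 5 each), which is 2.11 log2 units (standard error 0.31), or 4.30-fold. By this difference EPRS1 stood 5th from the highest of 14884 genes. CENPU 1 and control 2 were the low clones of their groups.

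LARS1, on chromosome 5 (146113034 to 146182650), was 3.08-fold higher in CENPU clones. Its log2 level was 8.60, 8.87, 9.70, 9.92 and 10.12 in CENPU clones 1, 4, 5, 7 and 13, and 8.18, 7.11, 8.23, 7.78 and 7.81 in control clones 1 to 5. The groups were apart by 0.36, and the clones were ordered within the CENPU group as for EPRS1. The group difference on the log2 scale was 1.62 (standard error 0.31), from means of 9.44 ± 0.67 and 7.82 ± 0.45 (SD, n = 5 each). IARS1, the isoleucyl enzyme and a relative of LARS1 in sequence, is on chromosome 9 (92210207 to 92293697). It had log2 levels of 8.68, 9.50, 9.82, 10.37 and 10.59 in CENPU clones 1, 4, 5, 7 and 13, against 9.19, 8.13, 9.00, 9.00 and 8.90 in control clones 1 to 5. Of its CENPU clones, 4 of 5 lay above the highest control, but CENPU 1 lay below all control clones except control 2. The group difference on the log2 scale was 0.95 (standard error 0.33), or 1.93-fold, from means of 9.79 ± 0.76 and 8.84 ± 0.41 (SD, n = 5 each).

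RARS1 and QARS1 share a binding partner in the complex, AIMP1, and their RNA levels differed in how they varied. RARS1, on chromosome 5 (168486471 to 168519301), had log2 levels of 8.46, 8.80, 8.97, 9.32 and 9.56 in CENPU clones 1, 4, 5, 7 and 13. Control clones 1 to 5 had 8.30, 7.23, 8.37, 7.89 and 8.14, so the groups were apart by 0.10. The group difference on the log2 scale was 1.04 (standard error 0.24), or 2.05-fold, from means of 9.02 ± 0.43 and 7.99 ± 0.46 (SD, n = 5 each). QARS1, on chromosome 3 (49095932 to 49104757), had log2 levels of 10.57, 10.87, 10.59, 10.58 and 10.75 in CENPU clones 1, 4, 5, 7 and 13, and 10.84, 10.70, 10.81, 10.76 and 10.78 in control clones 1 to 5. The group difference of QARS1 on the log2 scale was -0.11 (standard error 0.09), from means of 10.67 ± 0.13 and 10.78 ± 0.06 (SD, n = 5 each), and its groups overlapped.

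KARS1, a class II enzyme that charges lysine tRNA, is on chromosome 16 (75627724 to 75647665). It was nearly level across the CENPU clones, at 9.90, 10.05, 9.95, 9.98 and 9.98 on the log2 scale in clones 1, 4, 5, 7 and 13. Control clones 1 to 5 had 9.71, 8.83, 9.58, 9.24 and 9.39. The SD of KARS1 was 0.05 in CENPU clones and 0.34 in control clones, around means of 9.97 and 9.35 (n = 5 each). Its groups were apart by 0.19, and the group difference on the log2 scale was 0.62 (standard error 0.15), or 1.54-fold. MARS1, whose product also charges the initiator tRNA, is on chromosome 12 (57488068 to 57516652). It had log2 levels of 9.62, 9.96, 9.87, 9.77 and 9.95 in CENPU clones 1, 4, 5, 7 and 13, and 9.77, 9.17, 9.61, 9.51 and 9.39 in control clones 1 to 5. Its groups overlapped through CENPU 1 and control 1. The group difference on the log2 scale was 0.34 (standard error 0.12), or 1.27-fold, from means of 9.83 ± 0.14 and 9.49 ± 0.23 (SD, n = 5 each).

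Within the CENPU group, the members fell into 2 patterns. EPRS1, LARS1, IARS1 and RARS1 had the same order in the CENPU clones, with clone 13 highest, then 7, 5, 4 and 1, and spanned 1.84, 1.53, 1.92 and 1.09 log2 units from lowest to highest. KARS1, MARS1 and QARS1 spanned 0.15, 0.34 and 0.30 there, with CENPU 4 highest in each. KARS1, MARS1 and QARS1 also had the smallest spans in the control clones, but KARS1 and MARS1 stood less apart from the other members there. KARS1 and MARS1 spanned 0.88 and 0.60 log2 units in control clones, EPRS1 1.00, IARS1 1.06, LARS1 1.12, RARS1 1.14 and QARS1 0.15. IARS1 and MARS1 had the same order of control clones, as did LARS1 and RARS1, and also KARS1 and QARS1. All 7 members were lowest in CENPU 1 among CENPU clones and lowest in control 2 among control clones. With each clone centred on the mean of its group, pairs of members had a median Pearson correlation of 0.65 over the 10 clones (21 pairs, 0.13 to 0.97). For comparison, all pairs of 6419 protein-coding genes with a mean of at least 6 had a median of 0.03. EPRS1 with IARS1 had the highest value, 0.97, and LARS1 with QARS1 the lowest, 0.13. KARS1 with MARS1 had 0.85. Without control 2, CENPU 7 and CENPU 13, the median over the 21 pairs was 0.64 (-0.08 to 0.90). These are descriptions over clones that share their arrays' overall trends.

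**Figure D2:**
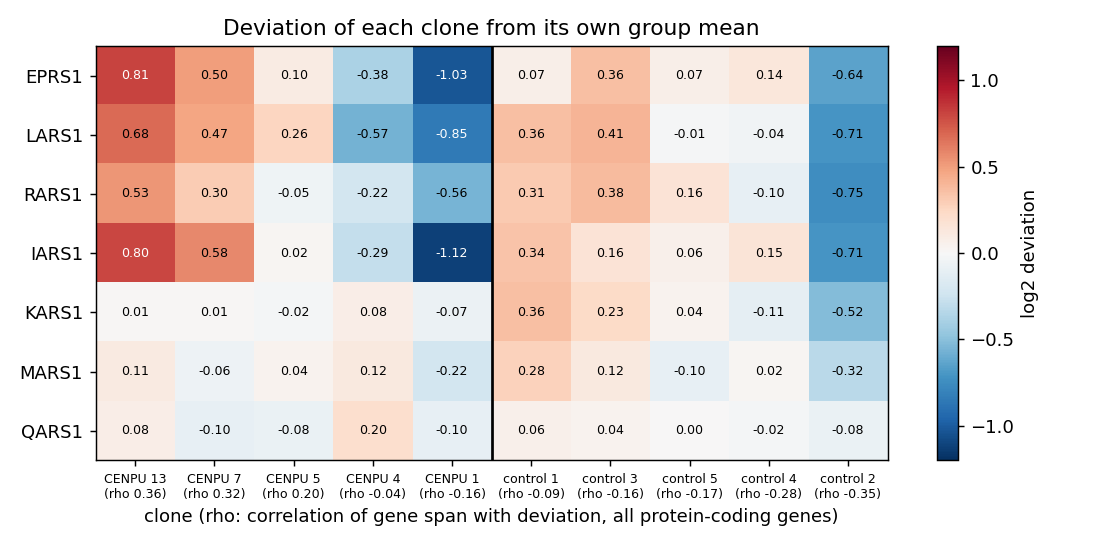
Each cell gives a clone's log2 deviation from the mean of its own group, for the 7 complex synthetases (rows) in the CENPU clones (left of the line) and control clones (right), ordered within each group by the span correlation rho printed under the clone. EPRS1, LARS1, RARS1 and IARS1 go from positive in CENPU 13 to negative in CENPU 1, and the column of control 2 is negative for all 7 members.

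The order of the CENPU clones in EPRS1, LARS1, IARS1 and RARS1 was also the order of a trend that ran through the arrays. In each clone, Spearman's correlation between the genomic span of 11916 protein-coding genes and their deviation from the mean of all clones was taken. It was 0.360, 0.316, 0.197, -0.0358 and -0.160 in CENPU clones 13, 7, 5, 4 and 1, and -0.0934, -0.355, -0.163, -0.279 and -0.165 in control clones 1 to 5. Longer genes were thus relatively high in CENPU 13 and relatively low in control 2. IARS1, EPRS1 and LARS1 span 83491, 77906 and 69617 bases and are longer than 78.8%, 77.3% and 75.1% of protein-coding genes, whereas QARS1 spans 8826 bases and is longer than 22.3%. RARS1, MARS1 and KARS1 span 32831, 28585 and 19942 bases. Across the 7 members, Spearman's correlation of span with log2 difference was 0.75, and across all protein-coding genes it was 0.327, with genes not being independent replicates.

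With the trend removed from each array, the log2 difference was 1.92 for EPRS1, 1.44 for LARS1, 0.94 for RARS1, 0.76 for IARS1, 0.59 for KARS1, 0.26 for MARS1 and -0.05 for QARS1. Without control 2, CENPU 7 and CENPU 13, which lie at the ends of the trend, EPRS1 differed by 1.51, LARS1 by 1.06, RARS1 by 0.57, IARS1 by 0.31, KARS1 by 0.49, MARS1 by 0.24 and QARS1 by -0.12. IARS1 thus lost most of its difference, and KARS1 kept more of its own than RARS1 did. In EPRS1, LARS1, IARS1 and RARS1, however, CENPU 13 and CENPU 7 were the highest CENPU clones and control 2 the lowest control. Leaving these clones out therefore had to lower the differences of these genes, whereas KARS1 was nearly level over CENPU clones. The part of the trend in these changes was not tested. Over the fits that left out a single clone, EPRS1 ranged from 1.90 to 2.36 and IARS1 from 0.75 to 1.23.

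**Figure D3:**
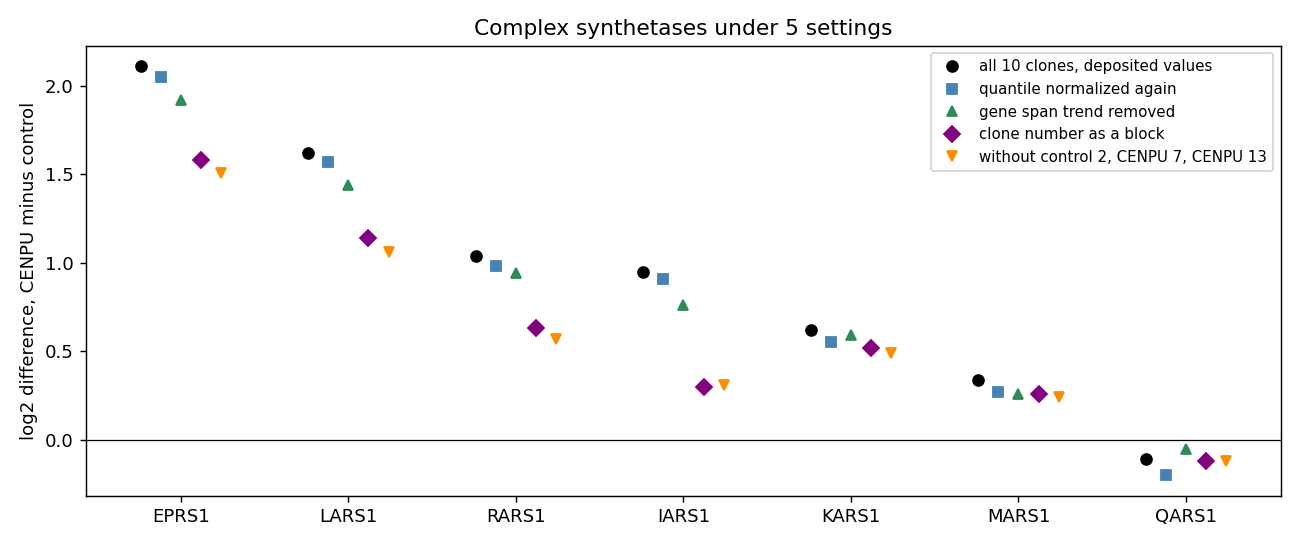
Log2 difference (CENPU minus control, vertical axis) of the 7 complex synthetases under 5 settings, shown by marker and colour. EPRS1 goes from 2.11 with all clones to 1.51 without control 2, CENPU 7 and CENPU 13, IARS1 goes from 0.95 to 0.31, and QARS1 stays near 0.

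Among genes outside the complex, those closest to EPRS1 in their centred pattern over the 10 clones were TXLNG (r = 0.992), NUP107, MMUT and PRP4K (0.989 each) and DIS3 (0.987), from 6412 candidates. NUP107 encodes a nucleoporin, MMUT the mitochondrial methylmalonyl-CoA mutase, PRP4K a splicing kinase and DIS3 a catalytic subunit of the exosome. Closest to the mean of the 7 members were UBE4A (0.988), TM9SF3 and KDM1B (0.984 each), NUP133 and EFR3A (0.983 each). Their spans, from 29732 bases in DIS3 to 109550 in EFR3A, were all above the protein-coding median of 26723.5 bases.

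Of the scaffold genes, AIMP1 was measured, and AIMP2 and EEF1E1 were not analysed here. The log2 level of AIMP1 was 6.14, 6.39, 6.80, 7.40 and 7.78 in CENPU clones 1, 4, 5, 7 and 13, and 6.76, 6.03, 6.54, 6.31 and 6.51 in control clones 1 to 5. Its CENPU clones had the order seen in EPRS1, and the groups overlapped. The log2 difference of 0.47 (standard error 0.28) did not pass (limma, Benjamini-Hochberg adjusted p = 0.298), and with control 2, CENPU 7 and CENPU 13 left out it became -0.08.

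The free-standing cytosolic synthetases work outside the complex and were not used to choose the members. This list was itself chosen with earlier results of these data known, so its count is not an independent check. Of 11 measured, 7 rose in CENPU clones, 0 fell and 4 did not pass (limma adjusted p under 0.05), against 10.1% of all named genes called, 5.31% higher and 4.79% lower. Without adjustment, at p under 0.05, there were 8 higher and 0 lower. Their median log2 difference was 0.62, against 0.95 for the complex members and -0.02 for all named genes, and the difference between these lists was not tested. GARS1, the glycyl enzyme, had log2 levels of 8.78, 9.35, 9.42, 9.58 and 10.02 in CENPU clones 1, 4, 5, 7 and 13, and 8.45, 7.06, 7.86, 8.02 and 7.91 in control clones 1 to 5. Its groups were apart, and it rose 2.96-fold (log2 difference 1.57, standard error 0.26, limma adjusted p = 0.00576).

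CARS1, SARS1 and WARS1, which charge cysteine, serine and tryptophan tRNAs, rose by log2 differences of 0.81, 0.62 and 0.65 (limma adjusted p = 0.00813, 0.00705 and 0.0174). These genes and GARS1 passed in all 10 fits without a single clone. SARS1, like KARS1, was nearly level in CENPU clones, at 8.95, 9.16, 9.08, 9.13 and 9.18 in clones 1, 4, 5, 7 and 13, above control clones at 8.25 to 8.72. The other genes that rose were TARS1 (1.39), AARS1 (0.54) and YARS1 (0.53), named after their values were seen, and they passed in 4, 7 and 4 of those 10 fits. NARS1 (1.16), TARS3 (0.24), HARS1 (0.16) and VARS1 (-0.04), also named after their values were seen, did not pass. The count was 4 without control 2 and 4 without control 5. Without control 2, CENPU 7 and CENPU 13 it was 2, namely GARS1 and CARS1. Spearman's correlation of span with log2 difference over the 11 genes was 0.218.

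**Figure D4:**
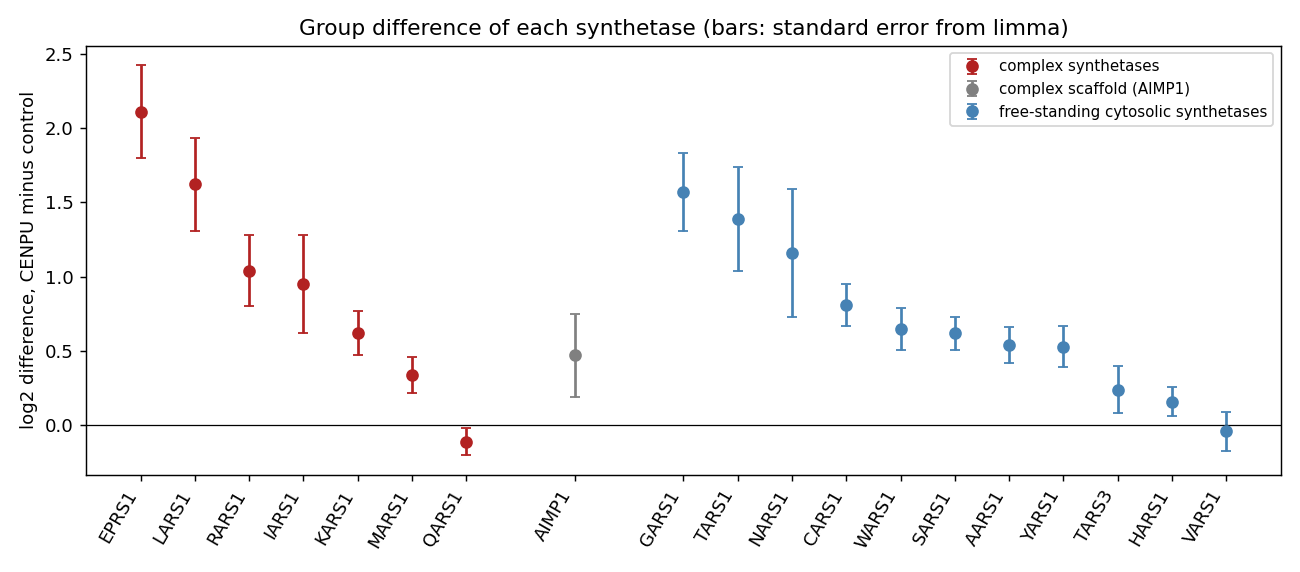
Log2 difference between CENPU and control clones (points) with the standard error from limma (bars) for the 7 complex synthetases, the scaffold gene AIMP1 and 11 free-standing cytosolic synthetases. EPRS1 is highest at 2.11, QARS1 and VARS1 lie just below 0, and GARS1 leads the free-standing enzymes at 1.57.

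**Figure D5:**
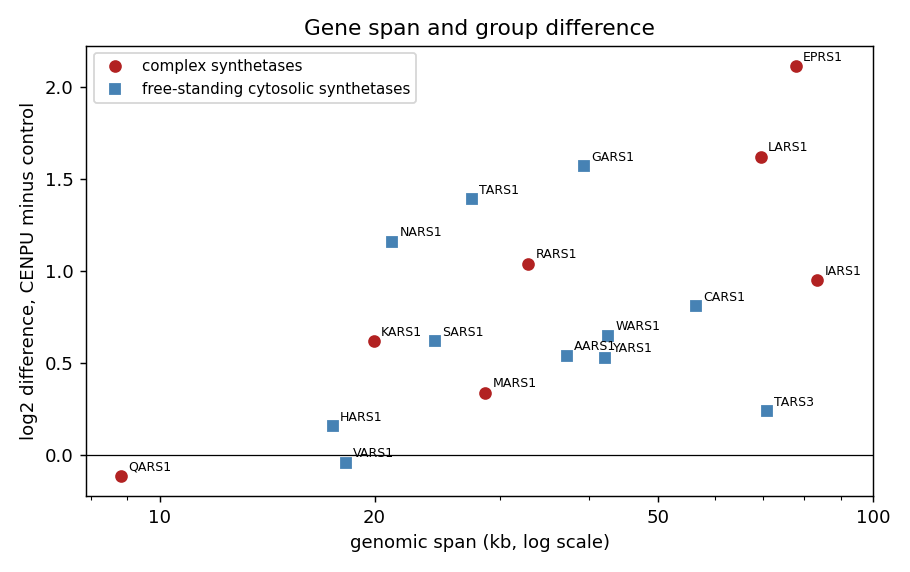
Genomic span in kb (horizontal log axis) and log2 difference between CENPU and control clones (vertical axis) for the complex synthetases (circles) and the free-standing cytosolic synthetases (squares). QARS1 has the shortest span and lies below 0, IARS1 has the longest span and lies at 0.95, and GARS1, TARS1 and NARS1 lie above 1 at intermediate spans.

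Most, but not all, mitochondrial synthetases have genes of their own. Of the 20 genes listed for mitochondria 2 were measured, QRSL1 and GATB. Both encode subunits of the glutamyl-tRNA amidotransferase and not synthetases, so they do not show how mitochondrial synthetases differed. Their log2 differences of 0.48 and 0.18 did not pass (limma adjusted p = 0.310 and 0.403), and 0 of the 2 were called at an unadjusted p under 0.05. Genes of the amino acid response and amino acid synthesis, many of them ATF4 targets, had 3 of 18 measured members higher and 0 lower, where 5.31% of all named genes were higher and 4.79% lower. The median difference over the 18 was 0.25. ASNS, the asparagine synthetase, rose by 0.95 (limma adjusted p = 0.0107), PHGDH, the first enzyme of serine synthesis, by 0.53 (adjusted p = 0.0280), and EIF4EBP1, a repressor of cap-dependent translation, by 0.33 (adjusted p = 0.0471). PSPH, the last enzyme of serine synthesis, had a difference of 0.52 and did not pass. ASNS passed in all 10 fits without a single clone, PHGDH in 4 and EIF4EBP1 in 0. The list count was 1 without CENPU 5, CENPU 7, CENPU 13, control 2, control 3 or control 5, each left out alone. Without control 2, CENPU 7 and CENPU 13 together it was 0. ATF4 itself differed by 0.14 and the stress gene DDIT3 by 0.23, and neither passed (limma adjusted p = 0.381 and 0.640). Both were named after their values were seen. Over the list, 14 of the 18 differences were above 0.

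Charged tRNA is handed to the ribosome by elongation factor 1. Of 7 measured genes of elongation and tRNA delivery, EEF1G and the release factor gene GSPT1 rose, EEF1D fell and 4 did not pass, where 10.1% of all named genes were called. The median difference of the 7 was 0.22. EEF1G was 12.15, 12.22, 12.08, 12.02 and 12.09 in CENPU clones 1, 4, 5, 7 and 13 and 11.49 to 11.65 in control clones, a log2 difference of 0.57 (limma adjusted p = 0.00370). GSPT1 rose by 1.00 (adjusted p = 0.00422), and EEF1D, like EEF1G a subunit of the factor that recharges elongation factor 1 with GTP, fell by 0.57 (adjusted p = 0.0160). The same count of 3 was found in each fit without a single clone. With control 2, CENPU 7 and CENPU 13 all left out the count was 2, and EEF1D no longer passed (-0.53, adjusted p = 0.0807). EEF1A2 had a difference of 0.22 and did not pass.

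Uncharged tRNA activates the kinase GCN2, and amino acids signal to mTORC1 through the RAG GTPases. In this amino acid sensing list, there were 3 rises and 0 falls among 19 measured genes, against 5.31% and 4.79% of all named genes. The median difference of the 19 was 0.32. Without adjustment, at limma p under 0.05, there were 8 higher and 3 lower. The groups were apart with CENPU higher in 4 of these genes and with CENPU lower in 2. After quantile normalization the list had 3 rises and 1 fall. MTOR, the kinase of mTORC1, rose by 0.78 (limma adjusted p = 0.0160), RRAGA by 0.74 (adjusted p = 0.0179) and EIF2AK4, which encodes GCN2, by 0.86 (adjusted p = 0.0250). GCN1, which helps to activate GCN2, had a difference of 0.36 and did not pass (adjusted p = 0.0672), although its groups were apart. MTOR passed in all 10 fits without a single clone, RRAGA in 9 and EIF2AK4 in 6. The list count was 7 without CENPU 1, 1 without control 4 and 0 without control 2, CENPU 7 and CENPU 13 together. Of 13 amino acid transporter genes listed, 0 had a named row, so they were not analysed here.

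The genes that flank the members on their chromosomes were called at a share near that of all named genes. Of the 42 nearest named genes, 3 on each side of each member, there were 2 rises and 4 falls, where 10.1% of all named genes were called. The median difference of the 42 was -0.04. Their distances from the member ran from 0 kb, for overlapping spans, to 5030 kb, so not all were close neighbours. RAB3GAP2, beyond EPRS1 by 102 kb, rose by 1.23 (limma adjusted p = 0.0280) and passed in 4 of 10 fits without a single clone. MIR616, whose row lies 2.51 kb from MARS1, rose by 0.91 (adjusted p = 0.0163). Its row was dim, with means of 4.27 and 3.36, and was left out by the filter on rows with means under 5. It lies within the span of DDIT3. MIR191 (-0.51) and IMPDH2 (-0.48), both near QARS1, ROR2 near IARS1 (-0.46) and WWC1 near RARS1 (-0.46) fell (limma adjusted p from 0.0274 to 0.0451). RBM27 near LARS1 (1.01), PANK3 near RARS1 (0.97) and CENPP near IARS1 (-0.40), a gene of the same centromere network as CENPU, did not pass. The spans of DDIT3 and ARHGAP9 each overlap that of MARS1 in RefSeq. Probe positions and strands were not examined here, so signal in the shared stretches cannot be assigned to either gene with certainty. All of these except MIR616 and MIR191 were named after their values were seen. The count of 6 was 1 without CENPU 7, CENPU 13, control 2 or control 4, and 2 without CENPU 5, control 3 or control 5, each left out alone. Without control 2, CENPU 7 and CENPU 13 together it was 0.

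Across the whole table, 791 genes were higher and 713 lower in CENPU clones (limma adjusted p under 0.05), with 613 to 2471 calls in fits without a single clone. These extremes came without control 4 and without CENPU 1. CENPU itself, the targeted gene, was 8.70 to 9.84 in CENPU clones and 5.78 to 6.56 in control clones, as labelled. It was lowest in CENPU 5 among CENPU clones, so its full order was not that of EPRS1. Like EPRS1, it was highest in CENPU 13 among CENPU clones and lowest in control 2 among control clones. A link between the levels of CENPU and of the members was not tested. Array medians lay between 4.62 and 4.76. Of 7 cell marker genes measured, VIM passed. This mesenchymal gene was 8.26 to 8.75 in CENPU clones and 7.58 to 7.93 in control clones, and its part in the differences of the synthetases was not tested. The epithelial genes KRT18, KRT19 and KRT8 differed by -0.21, 0.34 and -0.03. EPCAM, also epithelial, differed by 0.85 and was above every control clone in 4 of 5 CENPU clones, but did not pass (limma adjusted p = 0.0839). The androgen-responsive KLK3 was 5.36 to 5.72 and the endothelial PECAM1 4.88 to 6.21 across the 10 clones, and CDH1 and PTPRC were not analysed here.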

How the data were processed

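RNA of 10 clones was labelled with biotin and hybridised to 1-channel Affymetrix arrays. The authors deposited log2 expression values for 53617 probe sets, 1 column per clone. Partek and RMA (background correction, quantile normalization, probe summary) appear, with no version, in the submitters' processing notes. That the scale is log2 follows from their range, since no label states it. A change shared by most transcripts would have been removed by RMA, and background remains in dim rows, which makes their differences too small. Arrays have no read depth, and 5 clones a group set the precision.

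A platform table named 16098 rows with 1 symbol, 0 with several, and left 37519 without. All 16098 matched the RefSeq gene table (GRCh38.p14) by gene ID. A gene was represented by its row of highest mean. The build used to annotate the array is not stated, so coordinates are those of RefSeq genes. The fit used limma 3.58.1 in R 4.3.3 (lmFit, eBayes, two-sided, no covariates), with Benjamini-Hochberg adjustment over 16098 rows and a threshold of 0.05, and was tested on simulated data. P-values measure the spread between clones. The members and lists were chosen with earlier results of these data known, and no p is given for the members.

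Genes named were all members, the scaffold gene, up to 4 genes of each other list and 2 flanking genes by smallest p, and the 5 genes most like EPRS1 and the 5 most like the members' mean among protein-coding genes with a mean of at least 6. Others, apart from CENPU and the listed cell marker genes, are said to be named after their values were seen. The numbers 1, 4 and 5 occur in both groups, but the deviations of same-numbered clones correlated at -0.375, 0.104 and 0.0249, so the numbers were not taken to pair clones. Alternatives were quantile normalization, median centring, a filter on rows with means under 5, all rows, trend and robust variances, a block by clone number, removal of the span trend by loess, and leaving out clones. No scanner files were used here.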

Additional observations from a re-analysis of the deposited data

Results flagged for a closer look

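Among 54 genes named or ranked by likeness, each group of 5 clones was examined for a clone far from the rest, where chance flags about 5% of groups. Of 108 groups, 7 held such a clone, and in all 7 it was control 2, lower than the other control clones. IARS1 was 8.13 in control 2 against 8.90 in the next lowest control. The free-standing synthetase NARS1 was 7.47 there against 9.00, and ATF4 was 8.87 against 9.19, with the other control clones up to 9.21. PANK3, which flanks RARS1, was 6.47 against 7.33. Among the genes with patterns most like the members, NUP107 was 5.41 against 6.04, TM9SF3 was 7.11 against 8.03 and EFR3A was 6.30 against 7.53. These genes share clones and arrays, so the flags are not independent of each other. Control 2 also had the lowest span correlation of the 10 clones, -0.355, and its part in these values was not tested.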

How the results depend on the processing

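Over 18 alternatives, the 7 members kept the sign of their log2 difference, and those of KARS1 (0.49 to 0.71), MARS1 (0.24 to 0.41) and QARS1 (-0.20 to -0.05) moved by less than the pooled SD within groups (the root mean of both groups' variances). LARS1 ranged from 1.06 to 1.83. Without control 2, CENPU 7 and CENPU 13, EPRS1 (1.51), IARS1 (0.31) and RARS1 (0.57) moved by more than that pooled SD, and 470 genes were called. Calls among free-standing synthetases were then 2, and 0 in the amino acid response, amino acid sensing and flanking lists. With the clone number as a replicate block, which leaves 3 pairs, IARS1 was 0.30, 55 genes were called, and 0 genes were called in the free-standing, amino acid response, elongation, sensing and flanking lists; few residual degrees of freedom remain in that fit. In fits without a single clone, calls ranged from 613 to 2471 over all genes, 4 to 8 among free-standing synthetases, 1 to 2 in the amino acid response list, 1 to 7 in the sensing list and 1 to 8 among flanking genes. Signs reversed, in genes that did not pass in the fit of all clones, for AIMP1 (-0.08 with the block and -0.08 without the 3 clones) and VARS1 (0.13 with the block, 0.15 without the 3 clones, 0.04 without CENPU 7, 0.03 without CENPU 13, and -0.13 to 0.04 over all fits without a single clone). They also did for GATB with the span trend removed (-0.02), and for QRSL1 (-0.01) and DDIT3 (-0.03) without the 3 clones. The causes were not tested. YARS1 (0.40) and IMPDH2 (-0.39) no longer passed with the span trend removed. With all rows of the table, ROR2, WWC1 and EIF4EBP1 did not pass (adjusted p = 0.0611, 0.055 and 0.0606 by limma), nor did WWC1 (0.0538) and EIF4EBP1 (0.0529) with trend and robust variances. EIF4EBP1 also did not pass after quantile normalization (0.25) or with the span trend removed (0.24), both log2 differences. Dim rows were not assessed against background.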
